A study of Mus musculus with 7 samples.

Results

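The variable (V) segments of the T cell receptor loci were examined in CD8 T cells of mice, either wild type or lacking ACLY, the enzyme that makes acetyl-CoA from citrate in the cytosol. A gene was taken as a member when its symbol began with Trav, Trbv, Trgv or Trdv, the V segments of the alpha, beta, gamma and delta chains. This gave 83 of the 16156 genes in the table: 54 Trav, 21 Trbv, 2 Trgv and 6 Trdv. Of these, 3 had no symbol in the table and were named from their Ensembl identifiers: Trav3-1, Trav14-2 and Trbv26. The GENCODE annotation of the mm10 genome holds 129 Trav, 35 Trbv, 7 Trgv and 6 Trdv segments, so 75 Trav segments had no row and were not analysed here. Both genotypes were OT-I CD8 T cells of strain C57Bl/6 with a congenic mark. C57Bl/6 hosts received them 1 day ahead of infection with ovalbumin-expressing Listeria (LmOVA), and 6 days after infection the cells were isolated. Total RNA was sequenced in 3 libraries labelled ACLY KO and 4 labelled WT, and values of single libraries are listed below in replicate order. The labels do not say how Acly was deleted, how the transferred cells were sorted, whether the hosts lacked T cells of their own, or whether libraries came from separate animals. Every p-value therefore measures the spread between these libraries, which may be technical.

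A T cell builds each receptor chain by joining a V segment to a joining (J) segment, with a diversity (D) segment between them in the beta and delta chains, and the joined exon is spliced to a constant (C) gene. A polyclonal population uses many V segments, whereas OT-I cells carry an already joined receptor of the V alpha 2 family (Trav14 segments) and the V beta 5 family (Trbv12-1 and Trbv12-2). In alpha rearrangement the first joins tend to use V segments close to the J cluster and later ones more distant V segments. The delta locus lies inside the alpha locus, and some V segments, marked dv in their names, can serve both chains. Because bulk RNA was sequenced, fewer cells that use a segment and less RNA per cell cannot be told apart.

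The V segments of the OT-I families are shown first, because the counts of a segment depend on how far its sequence differs from those of its relatives. Sequences are from GENCODE M21 transcripts on mm10 and end just past the cysteine codon near the 3′ end of the V segment. In the first sequence of each set, capitals mark bases at which any other of the set differs from it, and in the others they mark bases that differ from the first. Trbv12-1 (chr6:41113858-41114057, plus strand) and Trbv12-2 (chr6:41119155-41119354, plus strand) differed at 24 of the 200 bases printed.
Trbv12-1: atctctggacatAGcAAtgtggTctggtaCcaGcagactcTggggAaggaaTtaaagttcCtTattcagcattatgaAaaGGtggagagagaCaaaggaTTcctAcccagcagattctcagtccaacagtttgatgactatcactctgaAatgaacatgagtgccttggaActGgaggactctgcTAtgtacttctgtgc
Trbv12-2: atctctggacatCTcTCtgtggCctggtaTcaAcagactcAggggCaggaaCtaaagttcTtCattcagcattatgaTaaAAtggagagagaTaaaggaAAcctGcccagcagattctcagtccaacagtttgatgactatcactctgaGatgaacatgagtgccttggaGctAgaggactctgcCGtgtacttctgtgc

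The 5 Trav14 segments with a row lie on the plus strand of chromosome 14, and the 160-base stretches shown are Trav14-1 (chr14:53554391-53554550), Trav14-2 (chr14:53641058-53641217), Trav14-3 (chr14:53763527-53763686), Trav14n-3 (chr14:53370408-53370567) and Trav14d-3-dv8 (chr14:53078878-53079037). Trav14-3 and Trav14n-3 differed from each other at 3 of these bases, and each differed from Trav14-1 at 7.
Trav14-1: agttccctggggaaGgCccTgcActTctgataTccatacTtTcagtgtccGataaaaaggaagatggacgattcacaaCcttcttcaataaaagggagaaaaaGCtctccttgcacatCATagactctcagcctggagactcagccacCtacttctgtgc
Trav14-2: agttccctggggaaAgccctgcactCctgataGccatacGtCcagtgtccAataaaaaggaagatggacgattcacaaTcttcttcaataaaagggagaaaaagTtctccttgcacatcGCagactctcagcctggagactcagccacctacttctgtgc
Trav14-3: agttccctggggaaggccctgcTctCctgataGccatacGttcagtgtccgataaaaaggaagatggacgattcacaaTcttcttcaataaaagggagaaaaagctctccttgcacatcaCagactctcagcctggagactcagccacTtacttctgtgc
Trav14n-3: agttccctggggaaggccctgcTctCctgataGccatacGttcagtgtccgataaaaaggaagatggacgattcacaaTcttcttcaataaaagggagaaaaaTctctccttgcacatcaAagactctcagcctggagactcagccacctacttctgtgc
Trav14d-3-dv8: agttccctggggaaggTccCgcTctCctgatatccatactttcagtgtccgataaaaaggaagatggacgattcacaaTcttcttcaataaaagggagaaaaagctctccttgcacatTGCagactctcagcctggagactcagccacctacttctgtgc

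To see how well reads could separate the segments, every 50-base window of each V transcript was compared with those of all other V segments. All 21 Trbv segments had at least 98.8% unique windows. The 54 Trav segments had a median of 59.2%, and 16 of them were under 50%. The 75 Trav segments without a row had a median of 0%. Among the Trav14 segments the unique share was 95.1% in Trav14-1, 61.2% in Trav14d-3-dv8, 54.4% in Trav14-2, 53.8% in Trav14n-3 and 43.3% in Trav14-3. The annotated Trav14d-1, Trav14d-2, Trav14n-1 and Trav14n-2 had 0% and no row. Counts of single Trav segments are therefore uncertain between near-identical copies. Shares below are shares of counts within a locus, not scaled by length, and the members' exons spanned 309 to 566 bases. Segments without a row are in none of these shares.

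Library totals were 37473484 to 39692359 counts in the KO libraries and 45288353 to 75586011 in the WT libraries. Acly was at 262, 62.0 and 209 CPM (counts scaled to the library total with TMM factors) in KO and at 276 to 414 CPM in the WT libraries. The log2 CPM of WT replicate 4 correlated with the other WT libraries at 0.929 to 0.936, against 0.986 to 0.990 among WT replicates 1 to 3. Marker genes of other cells varied more between the KO libraries. The 10 of 10 B cell markers measured, led by Ighm and Igkc, summed to 12555, 1297 and 647 CPM in KO and 260 to 683 CPM in WT. The 11 of 11 myeloid markers, led by Lyz2 and Csf1r, summed to 84.2 to 1479 CPM against 38.0 to 54.9 CPM. The 6 of 6 red cell markers, led by Hbb-bs and Hba-a1, summed to 46338, 6465 and 238 CPM against 1.48 to 468 CPM. KO replicate 1 was thus the highest library for each of these sums. Csf1r by itself was higher in KO replicate 3, at 239 CPM against 150 CPM in KO replicate 1. For natural killer T and MAIT cells 6 of 7 listed markers were measured, led by Gata3 and Cd1d1, and summed to 157 to 240 CPM against 228 to 301 CPM. For CD4 T cells 6 of 7 were measured, led by Ctla4 and Zbtb7b, and summed to 30.9 to 247 CPM against 62.8 to 76.7 CPM. Cd4 itself was at 110, 1.19 and 6.19 CPM in KO and at 0, 0.157, 0 and 0.119 CPM in WT (edgeR adjusted p = 0.0789). Of the measured markers, no gene was at 0 in all libraries. The part of such cells in the V segment values was not tested.

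Counts on the Trav segments with a row were spread over more of these segments in the KO libraries. The effective number of Trav segments, the exponential of the Shannon entropy of their shares, is the number of equally used segments that would give the same spread. It was 41.9, 38.3 and 42.1 in KO and 23.8, 22.0, 24.3 and 33.3 in WT. The groups did not overlap, with means of 40.8 ± 2.11 (SD, n = 3) and 25.8 ± 5.05 (SD, n = 4), and WT replicate 4 lay between the other WT libraries and the KO libraries. A segment held more than 1% of the Trav counts in 37, 37 and 38 cases in the KO libraries and in 24, 23, 25 and 29 cases in the WT libraries. These shares rest on 2427 to 7262 Trav counts per KO library and 2348 to 4991 per WT library. Thinned to the smallest of these totals the effective numbers were 38.0 to 41.9 in KO and 21.9 to 33.3 in WT. No test was made of these scores, which combine the members.

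**Figure D1:**
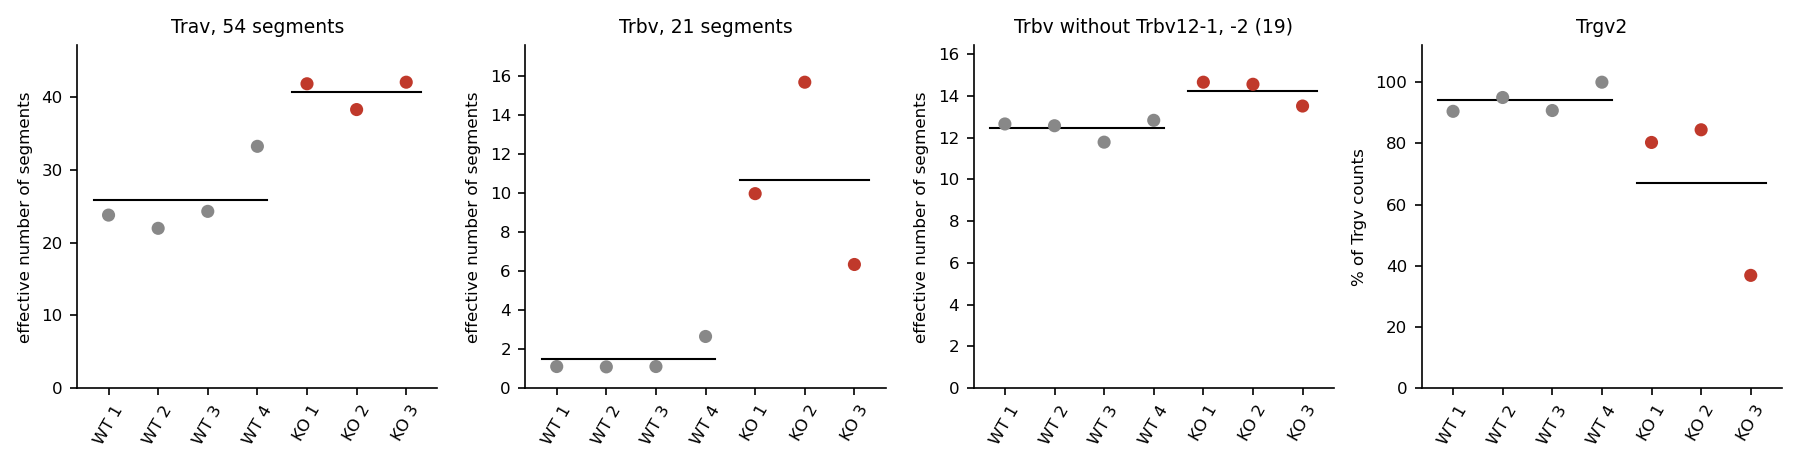
Effective number of V segments per library for Trav, for Trbv and for Trbv without Trbv12-1 and Trbv12-2, and the percent of Trgv counts on Trgv2 (y axes; x axes list the libraries; points are single libraries, lines are group means). In each panel no KO library overlaps a WT library, and WT replicate 4 lies nearest the KO libraries for Trav and Trbv.

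The wider spread concerned segments within families more than families. With the 54 segments summed to 20 families, the effective number was 13.8, 13.5 and 15.5 in KO and 13.1, 12.9, 13.8 and 12.7 in WT, and the groups overlapped. Trav14, the family of the OT-I alpha chain, held the largest mean share of the 20. It took 21.1%, 17.7% and 11.7% of Trav counts in KO and 15.2%, 14.9%, 11.8% and 17.9% in WT. These shares cover the 5 Trav14 segments with a row, and not Trav14d-1, Trav14d-2, Trav14n-1 or Trav14n-2. The 5 segments had 402 to 1289 counts per library, beside 18434 to 75478 counts of Trac. By contrast, Trbv12-1 and Trbv12-2 had 3770 to 51328 counts per library, beside 20442 to 110817 of Trbc1 and Trbc2. The Trav shares and effective numbers therefore describe the Trav counts in the table, and not all alpha chain RNA. How much of the OT-I alpha chain the counted segments capture was not tested. The KO mean of 16.9% ± 4.74 (SD, n = 3) and the WT mean of 14.9% ± 2.49 (SD, n = 4) differed by less than either spread, and without KO replicate 1 the KO mean was 0.20 percentage points below that of WT. The 95% Clopper-Pearson interval, which covers counting error only, was 19.5% to 22.8% in KO replicate 1, the highest library, and 10.8% to 12.8% in KO replicate 3, the lowest. The families Trav12, Trav7, Trav9 and Trav4 held larger shares in every KO library than in any WT library. The largest of these gaps was in Trav7, with a KO mean of 8.70% ± 0.565 (SD, n = 3) and a WT mean of 2.88% ± 1.36 (SD, n = 4). Trav19, the only measured member of its family, held a smaller share in every KO library, 3.17%, 5.74% and 4.84%, than in any WT library, 8.44%, 7.15%, 9.19% and 7.03%.

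In the test of each gene over the whole table (edgeR quasi-likelihood test, Benjamini-Hochberg adjustment over 16156 genes), 0 of 54 Trav segments passed an adjusted p of 0.05, as did 0% of all genes. At an unadjusted p under 0.05, 26 Trav segments were higher and 0 lower in KO, against 11.0% of all genes higher and 7.89% lower. DESeq2 called 17 Trav segments higher and 0 lower, against 7.13% and 3.61% of the genes it tested. With limma voom 26 were higher and 0 lower, against 5.32% and 1.68%. Every KO library lay above every WT library for 25 segments, and below for 0, against 9.46% and 9.03% of all genes. The fitted difference (log2, KO minus WT) was above 0 for 46 of the 54 segments, and its median was 1.82, against 0.00 over all genes.

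With KO replicate 1, KO replicate 3 or WT replicate 4 left out, edgeR called 1 Trav segment higher in each case and 0 lower. Of all 16156 genes, these 3 fits called 111, 142 and 95 higher and 48, 47 and 18 lower. Nothing is read from these single Trav calls. Trav14-2, of the OT-I family, was at 3.05, 6.59 and 3.45 CPM in KO and at 1.20, 1.26, 1.08 and 0.661 CPM in WT, without overlap (log2 difference 2.06 ± 0.44, SE, adjusted p = 0.0789). Trav9-2 stood at 1.82, 4.28 and 2.76 CPM in KO and 0.483, 0.381, 0.864 and 0.271 CPM in WT, again without overlap (log2 difference 2.56 ± 0.55, SE, adjusted p = 0.0797).

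The other Trav14 segments did not share one pattern. Trav14-1, which has the most distinct sequence of the 5 and held the most counts of the family, was at 3.82, 10.01 and 3.79 CPM in KO and at 5.26, 4.94, 3.30 and 2.98 CPM in WT. These ranges overlapped (log2 difference 0.51 ± 0.46, SE, adjusted p = 0.608). Trav14-3 overlapped as well, at 2.22, 4.89 and 2.43 CPM against 3.50, 3.25, 2.69 and 0.899 CPM (adjusted p = 0.818). The copies in the repeated blocks were further apart. Trav14n-3 was at 2.14, 5.75 and 2.20 CPM in KO and at 0.303, 0.202, 0.499 and 1.63 CPM in WT (log2 difference 2.35 ± 0.80, SE, adjusted p = 0.182). Trav14d-3-dv8 was at 2.46, 2.77 and 0.742 CPM against 0.221, 0.112, 0.154 and 0.949 CPM (adjusted p = 0.193), and here only WT replicate 4 reached the KO range.

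The segment with the largest share in WT replicates 1 to 3 was Trav21-dv12 (chr14:53875984-53876752), which is usable by alpha and delta chains. It held 16.1%, 17.0% and 16.3% of the Trav counts of WT replicates 1 to 3. The share was 1.92% in WT replicate 4 and 4.37%, 1.90% and 5.77% in KO. In CPM it was at 11.1, 11.2, 10.7 and 0.763 in WT and at 2.83, 3.21 and 6.19 in KO, so WT replicate 4 was the lowest of all 7 libraries (log2 difference -1.05 ± 0.82, SE, adjusted p = 0.546). The annotated pseudogene Trav8-2 was also highest in WT replicates 1 to 3 and lowest in WT replicate 4, with 4.50, 5.43, 5.36 and 0.0678 CPM in WT and 1.34, 1.28 and 4.22 CPM in KO (adjusted p = 0.772). Trav13-5 was at 4.41, 5.30, 3.71 and 1.41 CPM in WT and 1.34, 0.745 and 3.12 CPM in KO (adjusted p = 0.415). Of the other segments with high mean shares, Trav3-3, Trav16 and Trav19 overlapped between the groups in CPM, with adjusted p of 0.517, 0.731 and 0.865. The share of Trav19, given above, did not overlap.

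Shares were also grouped by position along the locus. All 54 Trav segments lie on the plus strand of chromosome 14, between 243 and 1792 kb from the start of Trac (chr14:54220521-54224206). The letters D and N in a Trav name mark copies in repeated blocks, and 13 of the measured segments carry one. These 13 took 17.8%, 19.1% and 15.9% of Trav counts in KO, 1.94%, 1.78% and 2.96% in WT replicates 1 to 3, whereas WT replicate 4 had 21.6%. The 10 measured segments nearest Trac showed the reverse, with 19.7%, 16.4% and 24.3% in KO, 47.6%, 49.2% and 48.0% in WT replicates 1 to 3, but 21.2% in WT replicate 4. The mean distance from Trac, weighted by counts, was 679, 696 and 651 kb in KO and 501, 490, 496 and 730 kb in WT. WT replicate 4 thus lay beyond the KO libraries in the distance and D and N measures and within their range in the third, so the genotypes overlapped in all of them. Both groupings were chosen after values were seen and no test was made.

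**Figure D2:**
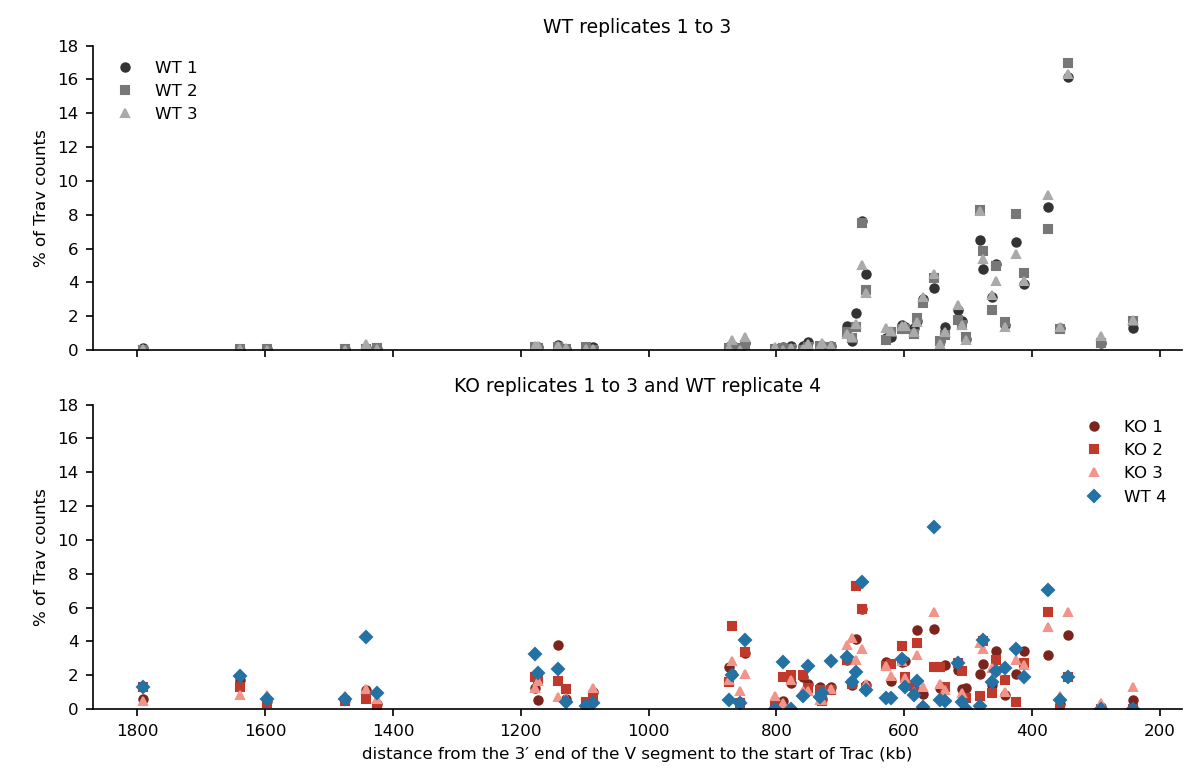
Share of Trav counts (y axis, percent) of each of the 54 Trav segments against its distance from the start of Trac (x axis, kb, nearest at the right); points are segments in single libraries, in the upper panel WT replicates 1 to 3, in the lower panel the KO libraries and WT replicate 4. In WT replicates 1 to 3 the 13 D and N segments together hold 1.78% to 2.96%, whereas in the lower panel they hold 15.9% to 21.6%.

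Segment by segment, all 13 D and N segments had a fitted difference above 0, with a median of 2.49 (log2, KO minus WT), and for 8 of them the KO libraries lay above the WT libraries. Of the 10 nearest Trac, 5 were above and 5 below 0, with a median of -0.20, and 0 were free of overlap. The other 44 segments had 41 above 0, a median of 2.14 and 25 with every KO library above every WT library, against 9.46% of all genes. The medians stand beside 0.00 over all genes, and 0 segments of either group passed edgeR's adjusted threshold. At an unadjusted p under 0.05, 10 of the D and N segments were higher, against 11.0% of all genes, and 0 of the 10 nearest Trac were higher or lower. Nothing particular to either group is read from these counts, since the groups were chosen after values were seen.

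**Figure D3:**
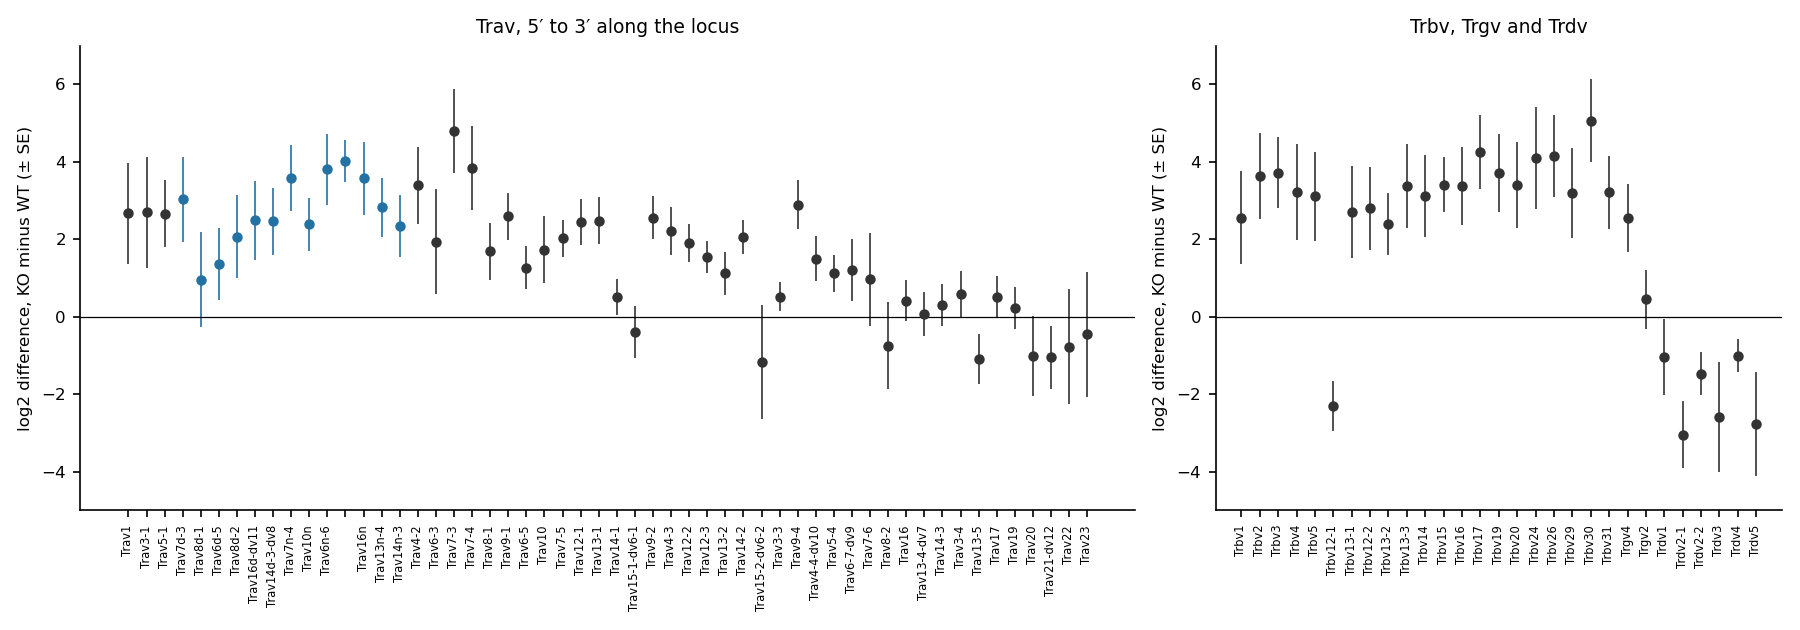
Fitted log2 difference, KO minus WT (y axis), with its SE for each of the 83 segments (x axis), Trav in order along the chromosome from the most distant to the nearest to Trac, then Trbv, Trgv and Trdv; blue marks the 13 D and N segments, and 1 of them has no axis label. Of the points 46 of 54 Trav, 20 of 21 Trbv, 2 of 2 Trgv and 0 of 6 Trdv lie above 0.

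Relative to the constant gene, more alpha V counts were present in the KO libraries. There were 13.2, 14.6 and 9.85 Trav counts per 100 Trac counts in KO and 6.79, 7.51, 6.77 and 3.11 in WT. The groups did not overlap, with means of 12.5 ± 2.42 (SD, n = 3) and 6.05 ± 1.99 (SD, n = 4). Per base of exon, the ratio of Trav to Trac counts was 0.238 to 0.350 in KO and 0.0742 to 0.183 in WT, so per base there were fewer Trav than Trac counts in every library. Summed Trav CPM was 64.9, 169 and 107 in KO and 68.8, 65.6, 65.4 and 39.8 in WT, and here KO replicate 1 fell within the WT range. Trac itself did not differ beyond its error, at 493, 1160 and 1090 CPM in KO and 874 to 1280 CPM in WT (log2 difference -0.18 ± 0.31, SE, adjusted p = 0.808). The counts of Trav segments without a row are not in these ratios.

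**Figure D4:**
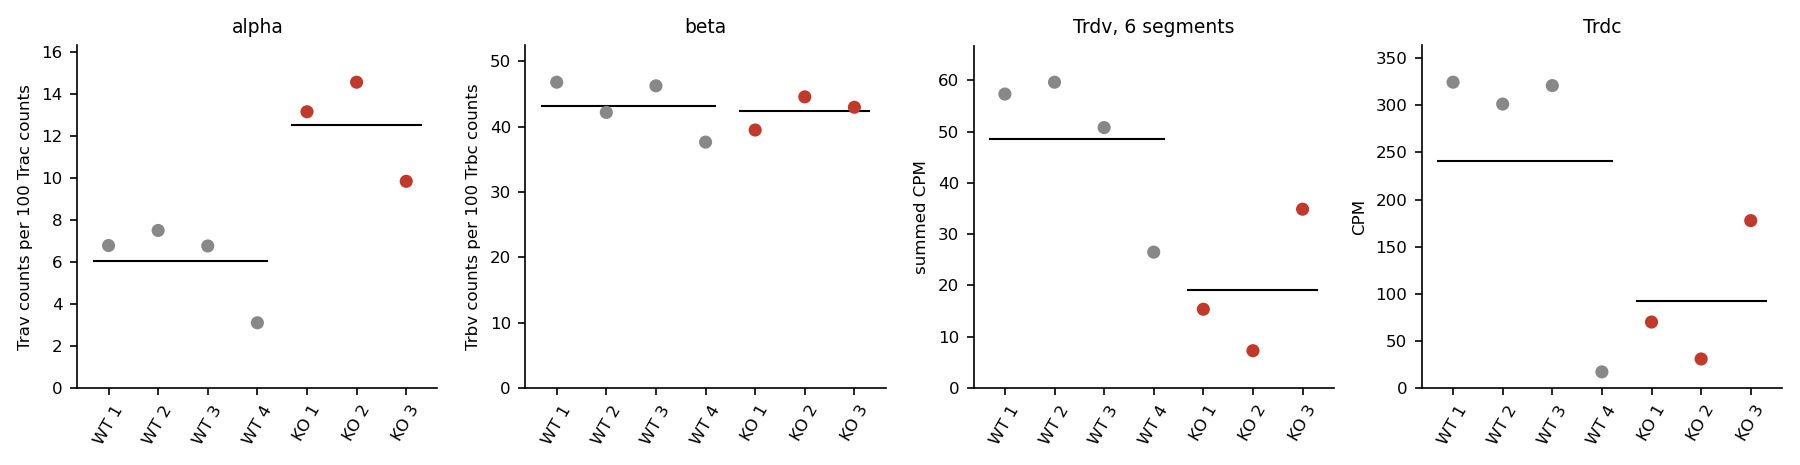
Trav counts per 100 Trac counts, Trbv counts per 100 Trbc1 and Trbc2 counts, summed Trdv CPM and Trdc CPM (y axes) in each library (x axes; points are libraries, lines group means). The alpha ratio is higher in all 3 KO libraries (9.85 to 14.6) than in the 4 WT libraries (3.11 to 7.51), the beta ratios overlap, and WT replicate 4 has the lowest Trdc.

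In the beta locus the counts of WT replicates 1 to 3 came almost wholly from Trbv12-1. Its share was 98.8%, 99.0%, 98.8% and 81.0% in WT and 40.9%, 8.59% and 56.3% in KO. Its relative Trbv12-2 held 5.85%, 14.6% and 5.43% in KO and 0.177%, 0.173%, 0.207% and 3.45% in WT. These 2 segments of the OT-I beta family therefore differed in opposite directions. In CPM, Trbv12-1 was at 88.1, 37.0 and 256 in KO and 707, 822, 614 and 355 in WT, without overlap (log2 difference -2.30 ± 0.65, SE, adjusted p = 0.13). Trbv12-2 was at 12.6, 62.9 and 24.7 CPM in KO and 1.27, 1.44, 1.29 and 15.1 CPM in WT, where WT replicate 4 lay above KO replicate 1 (log2 difference 2.80 ± 1.07, SE, adjusted p = 0.22). In KO replicate 2, Trbv12-2 held more counts than Trbv12-1, 2702 against 1588. The effective number of Trbv segments was 9.95, 15.7 and 6.33 in KO and 1.10, 1.08, 1.10 and 2.64 in WT, and the groups did not overlap.

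By edgeR 0 of 21 Trbv segments passed the adjusted threshold. At an unadjusted p under 0.05, 18 were higher and 1 lower, against the same 11.0% and 7.89% of all genes. DESeq2 had 15 higher and 1 lower past its threshold, against 7.13% and 3.61% of the genes it tested. The numbers with limma voom were 20 and 1, against 5.32% and 1.68%. The KO libraries lay above the WT libraries for 17 segments and below for 1, which was Trbv12-1, against 9.46% and 9.03% of all genes. The median fitted difference was 3.37 (log2, KO minus WT). The calls changed with the libraries used. Without WT replicate 4, edgeR called 14 Trbv segments higher and 0 lower, against 95 higher and 18 lower of all 16156 genes. The median Trbv difference was then 5.13. Without KO replicate 3, edgeR called 1 Trbv segment, Trbv12-1, lower, against 142 higher and 47 lower of all 16156 genes.

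Among the single segments, Trbv15 was at 4.54, 12.9 and 4.78 CPM in KO and 0.400, 0.314, 0.499 and 1.56 CPM in WT (log2 difference 3.41 ± 0.71, SE, adjusted p = 0.0767). Trbv17 was at 4.73, 25.7 and 12.7 CPM in KO and 0.303, 0.247, 0.403 and 2.03 CPM in WT (log2 difference 4.26 ± 0.95, SE, adjusted p = 0.0844). Trbv30, with fewer counts in both genotypes, was at 0.508, 3.70 and 1.59 CPM in KO and 0.0552, 0.0449, 0 and 0.119 CPM in WT (adjusted p = 0.079). For each of them every KO library lay above every WT library, and WT replicate 4 was the highest WT library. Trbv16 was at 11.9, 53.6 and 29.2 CPM in KO and 0.979, 1.05, 0.902 and 9.27 CPM in WT (log2 difference 3.37 ± 1.01, SE, adjusted p = 0.144). Trbv3, Trbv13-2, Trbv13-3 and Trbv19 were also without overlap, with log2 differences of 3.72, 2.40, 3.38 and 3.70 and adjusted p of 0.0995, 0.172, 0.16 and 0.123. Trbv1 overlapped, since WT replicate 4 at 10.8 CPM lay above KO replicate 1 at 10.3 CPM (adjusted p = 0.303). Trbv31, the member on the minus strand beyond the constant genes (chr6:41557691-41558452), was at 8.66, 13.9 and 4.22 CPM in KO and at 0.469, 0.247, 0.326 and 2.80 CPM in WT.

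With Trbv12-1 and Trbv12-2 set aside, the other 19 segments had closer effective numbers in the genotypes. Their effective number was 14.7, 14.6 and 13.5 in KO and 12.6, 12.6, 11.8 and 12.8 in WT. The groups still did not overlap, but the difference in means was 1.78, against 9.16 with the pair included. These values rest on 4302 to 14189 counts in the KO libraries and on 537, 304, 331 and 4009 counts in WT, so the shares of WT replicates 1 to 3 carry the most counting error. The effective numbers without the pair were not thinned to a common total, and fewer counts can lower an effective number. Trbv13-2 held 11.1%, 8.03% and 9.77% of the rest in KO and 21.6%, 18.4%, 23.3% and 14.5% in WT, without overlap. Trbv16 overlapped, with a KO mean of 14.5% ± 3.57 (SD, n = 3) and a WT mean of 14.1% ± 0.972 (SD, n = 4). For Trbv14 these means were 4.65% ± 0.403 and 4.66% ± 0.503. Trbv13-2 and Trbv16 were among the first 3 of the 19 in all 7 libraries, and Trbv4, Trbv5 and Trbv24 were each under 1% in all of them.

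**Figure D5:**
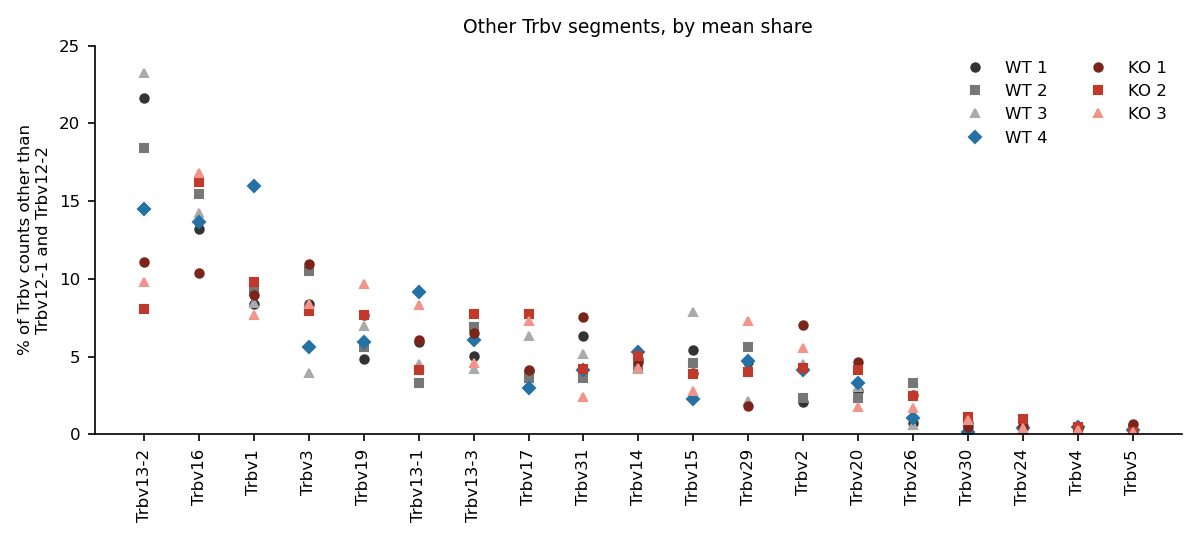
Share of the Trbv counts outside Trbv12-1 and Trbv12-2 (y axis, percent) for the other 19 segments (x axis, by mean share), each point 1 library. Trbv13-2 is higher in all 4 WT libraries (14.5% to 23.3%) than in the 3 KO libraries (8.03% to 11.1%), and Trbv16 and Trbv14 overlap.

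The beta V to C ratio did not differ as the alpha ratio did. There were 39.5, 44.6 and 43.0 Trbv counts per 100 counts of Trbc1 and Trbc2 in KO and 46.8, 42.2, 46.2 and 37.6 in WT, with overlapping groups. Per base of exon the ratio was 0.716 to 0.816 in KO and 0.684 to 0.857 in WT, above the alpha ratio in every library. Trbc2 was lower in every KO library, at 317, 499 and 572 CPM, than in any WT library, at 968, 1300, 833 and 846 CPM (log2 difference -1.09 ± 0.26, SE, edgeR adjusted p = 0.0959, DESeq2 adjusted p = 0.00233). Trbc1 overlapped, at 229, 466 and 486 CPM in KO and 319 to 669 CPM in WT (adjusted p = 0.592).

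Gamma chain V counts were few. Trgv2 and Trgv4 together had 66, 90 and 19 counts in KO and 42, 60, 54 and 32 in WT. Trgv2 (chr13:19336573-19337167, minus strand) had 53, 76 and 7 counts in KO and 38, 57, 49 and 32 in WT, with overlap (log2 difference 0.45 ± 0.76, SE, adjusted p = 0.799). Trgv4 (chr13:19184974-19185506, plus strand) had 13, 14 and 12 counts in KO and 4, 3, 5 and 0 in WT, so every KO library lay above every WT library. In CPM this was 0.307 to 0.347 in KO and 0 to 0.0960 in WT (log2 difference 2.54 ± 0.87, SE, unadjusted p = 0.0204, adjusted p = 0.182). The share of Trgv2 was 80.3%, 84.4% and 36.8% in KO and 90.5%, 95.0%, 90.7% and 100% in WT. The Clopper-Pearson interval of KO replicate 3 ran from 16.3% to 61.6%, that of KO replicate 1 from 68.7% to 89.1% and that of WT replicate 2 from 86.1% to 99.0%. Thus KO replicate 3 stood apart beyond counting error, and without it the difference in mean share moved from -26.9 to -11.7 percentage points. In WT replicate 4 all 32 counts were of Trgv2, with an interval from 89.1%, and a limit of 3 counts puts the Trgv4 share at up to 9.38%.

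The gamma constant genes lay higher in KO when summed. Trgc1, Trgc2 and Trgc4 together were at 12.1, 9.66 and 6.88 CPM in KO and at 2.68, 5.09, 5.09 and 1.14 CPM in WT, without overlap. Trgc1 was at 5.26, 2.16 and 1.71 CPM in KO and at 0.593, 1.23, 1.34 and 0.136 CPM in WT, also without overlap (adjusted p = 0.255). Trgc2 and Trgc4 overlapped (adjusted p = 0.593 and 0.189). Per base of exon the Trgv to gamma constant ratio was 0.152 to 0.417 in KO and 0.389 to 0.912 in WT.

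Delta chain V segments went the other way. All 6 Trdv segments had a fitted difference below 0, with a median of -2.03 (log2, KO minus WT), and 3 of them reached an unadjusted p under 0.05, against 7.89% of all genes. By edgeR 0 of 6 passed the adjusted threshold, by DESeq2 0 of the 4 it tested, and by limma voom 1, Trdv2-2. Trdv2-2 (chr14:53960944-53961602), of whose 50-base windows 47.4% are unique because of its likeness to Trdv2-1, held the largest part of the counts. It was at 7.06, 4.24 and 20.8 CPM in KO and 35.0, 35.7, 29.8 and 18.5 CPM in WT, with KO replicate 3 above WT replicate 4 (log2 difference -1.48 ± 0.55, SE, adjusted p = 0.212). Its share of Trdv counts was 45.9%, 58.1% and 59.6% in KO and 61.1%, 59.9%, 58.7% and 69.7% in WT, and the groups overlapped. Trdv2-1 was rare, with 1, 0 and 2 counts in KO and 17, 12, 9 and 14 in WT, so the groups did not overlap and edgeR's adjusted p was 0.13.

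Trdv1 and Trdv4 showed how WT replicate 4 differed within the delta locus. Trdv1 was at 16.4, 14.7 and 13.6 CPM in WT replicates 1 to 3, 1.03 CPM in WT replicate 4 and 3.795, 1.37 and 11.5 CPM in KO (adjusted p = 0.628). Trdv4 was at 3.56, 5.92, 5.01 and 6.58 CPM in WT and 3.95, 1.58 and 2.30 CPM in KO, so there WT replicate 4 was the highest (log2 difference -1.01 ± 0.43, SE, adjusted p = 0.26). Trdv5, on the minus strand beyond the constant gene, was at 1.75, 2.51, 1.82 and 0.170 CPM in WT and at 0.534, 0 and 0.154 CPM in KO (adjusted p = 0.325). The pseudogene Trdv3 had 26, 21, 21 and 0 counts in WT and 0, 4 and 2 in KO (adjusted p = 0.387). In summed CPM the Trdv segments were at 15.4, 7.29 and 34.9 in KO and 57.3, 59.6, 50.8 and 26.5 in WT, and only KO replicate 3 and WT replicate 4 overlapped.

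The constant gene Trdc was at 70.0, 30.9 and 178 CPM in KO and at 325, 301, 321 and 17.2 CPM in WT (log2 difference -1.38 ± 0.95, SE, adjusted p = 0.489). Trdv counts per 100 Trdc counts were 19.6 to 23.6 in KO and 15.8 to 19.8 in WT replicates 1 to 3, but 154 in WT replicate 4. Of 13 gamma delta T cell markers 9 were measured, led by Trdc and Blk, and summed to 72.0 to 367 CPM in KO and 41.7 to 375 CPM in WT. Without the receptor constant genes the sum was 285, 31.5 and 21.9 CPM in KO and 22.5, 31.1, 48.5 and 23.4 CPM in WT, so it overlapped. In KO replicate 1 most of this sum was Blk, a kinase gene also active in B cells, at 253 CPM, and that library had the largest B cell marker sum. The members did not share one pattern. Sox13 was at 2.40, 0 and 10.8 CPM in KO and 5.48, 10.4, 15.9 and 0 CPM in WT. Il23r was at 1.66, 0 and 0 CPM in KO and 1.03, 2.83, 3.34 and 0 CPM in WT. Cd163l1 was present in all libraries, at 7.75 to 23.4 CPM in KO and 13.8 to 25.1 CPM in WT. The part of gamma delta T cells in the Trdv and Trgv values was not tested.

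The joining segments and the recombination gene were taken from the same table. Of 45 Traj segments, 25 had a fitted difference above 0 and 20 below, with a median of 0.26 (log2, KO minus WT). The 4 that lie at the 5′ end of the J cluster, Traj58 to Traj61, summed to 7.59, 0.698 and 20.04 CPM in KO and 32.6, 33.3, 29.4 and 25.3 CPM in WT, without overlap. Singly, only Traj58 was without overlap, and it was highest in WT replicate 4, at 15.2 CPM. For Traj59, Traj60 and Traj61, KO replicate 3 lay above WT replicate 4. Every KO library lay above every WT library for 2 of the 45 Traj segments and below for 8, against 9.46% and 9.03% of all genes. Of 14 Trbj segments 13 were below 0, with a median of -0.48. By edgeR 0 of these J segments passed. At an unadjusted p under 0.05, 7 Traj were higher and 6 lower and 1 Trbj lower, while DESeq2 called 1 Traj higher, 2 Traj lower and 1 Trbj lower, and limma voom called 0 Traj and 1 Trbj lower. Over all genes, the unadjusted shares were 11.0% higher and 7.89% lower and those of DESeq2 7.13% and 3.61%, so nothing is read from these J segment counts. Dntt, the polymerase that adds bases at the joins, was at 1.68, 4.12 and 8.93 CPM in KO and at 0, 0.0673, 0.115 and 0 CPM in WT, without overlap (adjusted p = 0.0704). Rag1 and Rag2 had no row. Of the CD3 chains that carry the receptor to the surface, Cd3d, Cd3e and Cd3g were lower in every KO library than in any WT library, as were 9.03% of all genes. Their log2 differences were -0.59, -0.46 and -0.57, with adjusted p of 0.286, 0.4 and 0.329. KO replicate 1 was the lowest library for all of them, with Cd3d at 288 CPM against 570 and 609 CPM in the other KO libraries and 661 to 800 CPM in WT. Cd247 overlapped (adjusted p = 0.432). The coreceptor genes Cd8a and Cd8b1 were present in all libraries, at 225 to 852 and 566 to 2035 CPM in KO and 531 to 786 and 1447 to 2449 CPM in WT, and overlapped (adjusted p = 0.861 and 0.677).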

How the data were processed

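Total RNA of OT-I CD8 T cells was sequenced in 7 libraries, 3 KO and 4 WT. A column kit with DNase digestion was used, per the labels' protocols. Per the submitters' processing notes, Trim Galore 0.6.0, STAR 2.7.8, DESeq2 (no version stated) and the mm10 genome were used. No source used here gives the counting tool, annotation, strand setting, read length or filter. The authors deposited raw counts for 16156 genes and their log2 CPM. These log2 values equalled values recomputed from the counts (edgeR, TMM, prior count 2) within 4.99e-09. The table supplied symbols, except for 2810 rows.

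Genotypes were compared in R 4.3.3 with edgeR 4.0.16 (quasi-likelihood test, TMM, genotype only, no filter, Benjamini-Hochberg over all genes, threshold 0.05). SEs come from that fit. Shares, effective numbers and ratios were computed per library from counts and carry no test. Intervals of shares are 95% Clopper-Pearson intervals, and a count of 0 is given an upper limit of 3 counts. Before scaling, 3 counts equal 0.0397 to 0.0801 CPM, so segments near this level are imprecise. Coordinates, exons and sequences are from GENCODE M21. The alternatives were other scalings, a mean count of 10 or more, filterByExpr, DESeq2 1.42.0, a replicate block, limma 3.58.1 voom with quality weights, other diversity measures and each library left out. Leaving out KO replicate 1 with WT replicate 4, and the alternatives for the Trdv sum, the D and N share and the distance from Trac, were chosen after seeing the data.

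The members, lists and tests were chosen with earlier results of these data known. The rule named the 8 Trav segments with the highest mean share and the Trav14 family, the Trbv12 pair and the 6 next Trbv segments, the Trgv and Trdv segments with a mean of 10 or more counts, and the 3 smallest p-values in Trav and in Trbv. It also named the constant genes, CD3 and coreceptor genes, Dntt, and the 2 highest genes of each marker list. It gave 30 members, of which 1 is not reported here; Trgv4, Trdv2-1, Trbv31, Trbv14, Trbv4, Trbv5, Trbv24 and the J segments were named after their values were seen.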

Additional observations from a re-analysis of the deposited data

Results flagged for a closer look

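In a group of 4 libraries, the gap between the most extreme library and its neighbour was compared with the range of the group, at Dixon's 95% critical value for 4 values. Of 42 such checks over the WT libraries, 16 passed it, where chance gives about 1 in 20, and each of the 16 concerned WT replicate 4. The checks are not independent of each other, because they read the same library. They were not made over all genes, so the 16 are not read as particular to V segments. WT replicate 4 also stood apart over all genes, where its log2 CPM correlated with the other WT libraries at 0.929 to 0.936.

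In the beta locus, WT replicate 4 stood apart by its effective number of Trbv segments (2.64) and by the joint share of Trbv12-1 and Trbv12-2 (84.5%). It also stood apart by the levels of Trbv12-2 (15.1 CPM), Trbv16 (9.27 CPM), Trbv13-2 (9.83 CPM), Trbv1 (10.8 CPM), Trbv3 (3.81 CPM), Trbv19 (4.04 CPM), Trbv13-3 (4.12 CPM), Trbv15 (1.56 CPM) and Trbv17 (2.03 CPM), each above the other WT libraries.

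In the alpha locus it had the lowest summed Trav level of the 4 (39.8 CPM), the largest share of counts on D and N segments (21.6%), and the largest mean distance of Trav counts from Trac (730 kb). Trav21-dv12 was lowest there (0.763 CPM) and Trav14d-3-dv8 highest (0.949 CPM). The labels give nothing that sets this library apart from the other WT libraries.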

How the results depend on the processing

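The table without a filter held low counts, and 3 KO and 4 WT libraries limit the precision. By edgeR 0 of 16156 genes, 0 Trav, 0 Trbv and 0 Trgv or Trdv segments passed under every scaling and filter tried. DESeq2 called 1561 genes, 17 Trav and 16 Trbv segments, and limma voom 1132 genes, 26 Trav, 21 Trbv and 1 Trdv segment. Without KO replicate 1 and WT replicate 4 together, edgeR called 1446 genes (820 higher, 626 lower), 21 Trav and 20 Trbv segments. Leaving out 1 library gave 0 to 189 genes, 0 to 1 Trav segments, 0 to 14 Trbv segments and 0 Trgv or Trdv segments. The causes of these differences between tools and libraries were not tested.

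The replicate block, fitted because both genotypes number their libraries, called 0 genes, 0 Trav, 0 Trbv and 0 Trgv or Trdv segments. Deviations from the group means correlated at -0.11, -0.05 and 0.14 for numbers 1, 2 and 3, and at -0.088 to 0.099 for unlike numbers. The labels do not say whether equal numbers share an animal or day. These correlations cannot decide it, because the deviations within a group sum to 0.

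The KO minus WT difference in the effective number of Trav segments (14.9) was 1.14 with segments summed to families, 9.0 with only the 38 segments that have at least 50% unique windows, and 13.6 to 17.4 with 1 library left out. For Trbv (9.16) it was 1.78 without Trbv12-1 and Trbv12-2 and 6.66 to 11.3 with 1 library left out, and for Trgv 0.354 to 0.549. With 1 library left out, the difference in share ran from -0.20 to 4.48 percentage points for Trav14, from -60.4 to -41.2 for the Trbv12 pair and from -35.5 to -11.7 for Trgv2, and in the D and N share from 8.78 to 15.4. The log2 ratio of summed CPM ran from 0.52 to 1.21 for Trav, -1.01 to -0.56 for Trbv, 0.36 to 1.14 for Trgv and -2.10 to -0.95 for Trdv, and the mean distance from Trac differed by 99.6 to 180 kb. A mean count of 10 or more left only 1 Trgv segment and gave no Trgv2 share.

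For 45 single genes, 594 of 675 alternatives kept direction and side of the threshold, 66 passed it with the same direction and 15 turned the direction, in 7 genes. With 1 library left out, the log2 difference ran from -0.41 to 0.63 for Trav19, -0.15 to 0.50 for Trav14-3, -0.16 to 0.78 for Trav16, -0.040 to 0.96 for Trgv2, -0.11 to 0.75 for Trav14-1, -0.39 to 0.12 for Trac and -0.53 to 0.21 for Cd8a. With limma voom it was -0.12 for Trav19 and -0.068 for Trav14-3. With the replicate block it was -0.21 for Trav19, -0.072 for Trav14-3, -0.00052 for Trav16 and -0.037 for Trgv2. Without KO replicate 1 and WT replicate 4 together it was 0.26 for Trac and 0.32 for Cd8a.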
